A study of Rattus norvegicus with 12 samples.

Results

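The LRRC8 genes encode the subunits of the volume-regulated anion channel, and they were followed in the RNA of UMR-106, an osteoblast-like line from a rat osteosarcoma. The members were taken by gene symbol, Lrrc8a, Lrrc8b, Lrrc8c, Lrrc8d and Lrrc8e, and all 5 were listed in both expression tables, among the 18058 genes that the tables share (19414 genes in the control table and 18834 in the NFAT5KO table). Each of the 5 passed the minimum mean normalized count of 1 in each table. RNA was sequenced in 12 libraries, 3 for each of 4 groups: NFAT5KO cells with +NaCl, NFAT5KO cells with -NaCl, control cells with +NaCl and control cells with -NaCl. The +NaCl medium held 20 mM more NaCl and the -NaCl medium 20 mM less than the usual medium, for 24 h, so the 2 arms lay 40 mM apart and no library at the usual NaCl was analysed here. Words such as fell and rose thus compare +NaCl with -NaCl cells, and which arm moved from the usual medium cannot be told. Cells were grown in DMEM with serum, and the study's methods add calcitriol to the experimental medium of UMR-106 cultures. NFAT5KO cells were edited in Nfat5 by CRISPR-Cas9 and are a clone grown from 1 cell, whereas control cells are labelled WT, so a property of the clone and an effect of the deletion cannot be told apart.

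Cells that swell in dilute medium open the volume-regulated anion channel, through which chloride and small organic osmolytes such as taurine leave, and water follows until the volume is restored. The channel is a hexamer that needs LRRC8A, which brings the other subunits to the plasma membrane, together with at least one of LRRC8B to LRRC8E, and the partner sets what can pass: channels with LRRC8D let through taurine, uncharged osmolytes and the drugs cisplatin and blasticidin S, and channels with LRRC8C carry cyclic dinucleotides. NFAT5, the target of the knockout, is the transcription factor that drives uptake and synthesis of organic osmolytes when the medium is hypertonic.

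The libraries held 14267946 to 22798804 reads recovered from the normalized counts. Of 9 osteoblast markers, 9 had reads in every group, and their summed level was 5088 to 5161 RPM (reads per 1000000 recovered reads) in NFAT5KO +NaCl, 3960 to 4574 in NFAT5KO -NaCl, 6453 to 6842 in control +NaCl and 3889 to 4071 in control -NaCl libraries. Those markers thus moved with NaCl. By the test described below, 4 of 9 were higher in NFAT5KO cells (7.29% of all genes tested) and 8 of 9 in control cells (13.3%). For 3 of 9 the responses of the genotypes differed when compared directly (1.8% of all genes), with the more negative change in NFAT5KO cells. The part of the osteoblast markers in the LRRC8 values was not tested. Markers of leukocytes, endothelium and adipocytes summed to at most 3.39 RPM in any library, and of these lists Cd3e and Pecam1 were not analysed here. Muscle markers reached 20.5 and chondrocyte markers 44.5 RPM. Of the chondrocyte markers, Matn3 fell with +NaCl by 0.95 on the log2 scale in NFAT5KO cells (limma adjusted p = 0.0116) and by 1.08 in control cells (3.01e-04), and Sox9 rose by 0.41 in control cells (0.00323). Of the muscle markers, Actn2 rose by 0.42 in NFAT5KO cells (limma adjusted p = 0.039). The part of these markers in the LRRC8 values was not tested either. NFAT5KO -NaCl replicate 1 stood apart from its group, with -5.63 on principal component 1 against -22.9 and -19.8 in NFAT5KO -NaCl libraries 2 and 3, and thus nearer to the +NaCl side. Libraries are numbered by replicate. The study's methods call the 3 libraries of a group biological replicates, and the labels do not say how the cultures were kept apart.

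Nfat5 itself checked the labels. Its level was 5.68, 6.52 and 6.53 RPKM (recovered reads per kb of the gene length in the tables, per 1000000 recovered reads) in NFAT5KO +NaCl and 4.20, 3.19 and 3.43 in NFAT5KO -NaCl libraries, against 18.6, 18.2 and 19.7 in control +NaCl and 12.8, 11.7 and 12.0 in control -NaCl libraries. All 6 NFAT5KO libraries lay below all 6 control libraries, and RNA counted over the whole gene remained in the clone. The study reports a complete knockout by immunoblot and by qPCR, for which it lists separate primers, with Nfat5 mRNA not detected in NFAT5KO cells. Reads over the whole gene are a different measure and do not show whether any NFAT5 protein is made. Nfat5 rose with +NaCl in both genotypes, by 0.80 on the log2 scale in NFAT5KO cells (SE 0.10, limma adjusted p = 8.54e-04, but 0.0764 in the fit without a mean-variance trend) and by 0.64 in control cells (SE 0.05, adjusted p = 4.11e-06). The NFAT5KO change minus the control change was 0.16 (SE 0.12, limma adjusted p = 0.611). The rise in NFAT5KO cells differs from the study's report, by immunoblot and qPCR, that NFAT5 there did not respond to +NaCl.

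Of the 5 genes, 3 lie in a row on chromosome 14, as the tables list positions (the labels name a mouse build, mm10, and the rat build of these positions is not given in the sources used here). Lrrc8d (ENSRNOG00000002121) spans 5086054 to 5101177, Lrrc8c (ENSRNOG00000002122) spans 5283647 to 5378726, and Lrrc8b (ENSRNOG00000002129) spans 5418741 to 5428757, all on the minus strand. The gaps are 182.469 kb and 40.014 kb. Apart from SNORA36, a small nucleolar RNA inside Lrrc8c, the tables list no further gene in this stretch, and the neighbour beyond Lrrc8d is Zfp326, a zinc finger gene. SNORA36 is listed in the control table alone. It had 3 reads in control -NaCl replicate 1 and 0 in the other 5 control libraries, so in control cells it took next to none of the reads in that stretch. Lrrc8a (ENSRNOG00000025296) is on chromosome 3 from 8802852 to 8828533 on the plus strand, and Lrrc8e (ENSRNOG00000028460) on chromosome 12 from 2557275 to 2568382 on the minus strand.

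**Figure D1:**
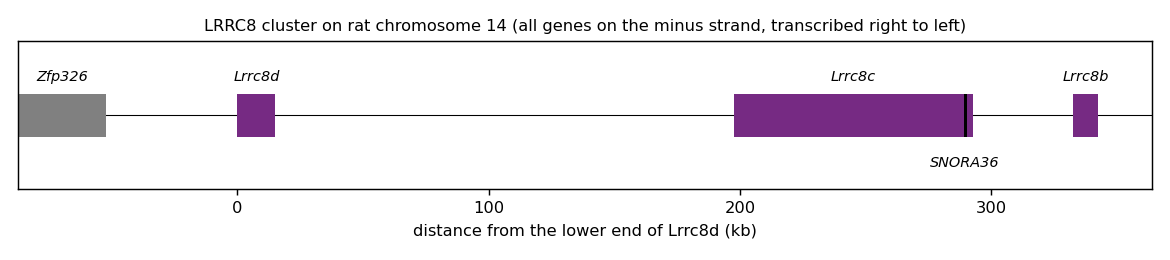
Map of the chromosome 14 cluster as the tables list it, with distance from the lower end of Lrrc8d on the x axis in kb. Purple boxes are LRRC8 genes, the grey box is the neighbour Zfp326 and the black mark is SNORA36 inside Lrrc8c; 342.704 kb separate the outer ends of Lrrc8d and Lrrc8b.

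RefSeq promoter windows (build GRCr8), 250 bases before to 50 bases after an annotated start, were found for all 5 members. The Lrrc8e window lies on the plus strand of GRCr8, whereas the tables give that gene the minus strand, and this mismatch was not resolved. They were searched on both strands for TGGAAA, the core letters that NFAT5 binds, for the longer TonE consensus, and for CCAAT, a general promoter element. Shown are the windows of Lrrc8d and Lrrc8b, the members whose RNA fell with +NaCl in control cells, and of Lrrc8a, the obligatory subunit; each is printed 5′ to 3′ along its gene, and capitals mark TGGAAA on the printed strand.
Lrrc8d, chr14:4350187-4350486, minus strand: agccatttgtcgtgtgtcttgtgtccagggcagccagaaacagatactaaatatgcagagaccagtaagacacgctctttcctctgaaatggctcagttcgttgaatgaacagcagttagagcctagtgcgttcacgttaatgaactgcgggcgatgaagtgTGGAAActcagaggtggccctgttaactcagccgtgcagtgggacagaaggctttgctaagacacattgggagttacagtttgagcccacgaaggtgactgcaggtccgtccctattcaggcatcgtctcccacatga
Lrrc8b, chr14:4721027-4721326, minus strand: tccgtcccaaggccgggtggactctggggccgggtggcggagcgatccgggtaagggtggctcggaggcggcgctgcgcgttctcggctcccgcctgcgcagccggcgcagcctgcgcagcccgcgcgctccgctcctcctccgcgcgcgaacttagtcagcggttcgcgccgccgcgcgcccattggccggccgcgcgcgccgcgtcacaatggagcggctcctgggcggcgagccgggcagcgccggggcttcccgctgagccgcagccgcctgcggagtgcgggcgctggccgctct
Lrrc8a, chr3:33908086-33908385, plus strand: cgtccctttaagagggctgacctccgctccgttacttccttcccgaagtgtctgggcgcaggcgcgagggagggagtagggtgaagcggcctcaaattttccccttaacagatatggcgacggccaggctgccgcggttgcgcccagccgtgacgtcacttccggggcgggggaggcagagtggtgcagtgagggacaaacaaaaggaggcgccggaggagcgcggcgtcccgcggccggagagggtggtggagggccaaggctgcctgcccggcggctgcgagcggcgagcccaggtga

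TGGAAA was found in the Lrrc8d window alone among the 5, at -88 to -83 from the annotated start, and 22.7% of all 33469 windows hold it. The TonE consensus was in none of the 5, against 5.98% of all windows. CCAAT was on the reverse strand in Lrrc8b (-67 to -63) and Lrrc8d (-23 to -19), against 37.5% of all windows. These windows differ in base composition: that of Lrrc8b holds 52 CG dinucleotides and that of Lrrc8a 30, while that of Lrrc8d holds 11, beside a median of 7 over all windows. The Lrrc8d start used by that table lies 61.313 kb inside the outermost end of the RefSeq gene, so other starts of this gene were not searched. A match describes letters, not a binding site or a cause, and a missing match says only that those letters are not in these bases.

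Per kilobase, Lrrc8a and Lrrc8d made up most of the LRRC8 RNA in every group, Lrrc8c and Lrrc8b followed, and Lrrc8e was the lowest. This order depends on the gene lengths listed, 6827 bases for Lrrc8c and 3314 for Lrrc8a. Shares without division by length are given at the end. On the RPKM scale, in NFAT5KO +NaCl cells Lrrc8a stood at 14.6 ± 1.08, Lrrc8d at 10.3 ± 0.458, Lrrc8c at 5.56 ± 0.395, Lrrc8b at 4.63 ± 0.242 and Lrrc8e at 0.802 ± 0.102 (SD, n = 3 each), and no 2 of these genes overlapped. In control -NaCl cells, the other extreme, Lrrc8d stood at 15.9 ± 0.131, above Lrrc8a at 12.3 ± 0.315, with Lrrc8c at 7.15 ± 0.464 and Lrrc8b at 7.01 ± 0.678 overlapping each other, and Lrrc8e at 1.59 ± 0.351 (SD, n = 3 each). The order of Lrrc8a and Lrrc8d was thus opposite in these groups, which differ in both genotype and medium. In NFAT5KO -NaCl and control +NaCl cells the libraries of the 2 genes overlapped, so no change of genotype or medium alone reversed the order without overlap.

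**Figure D2:**
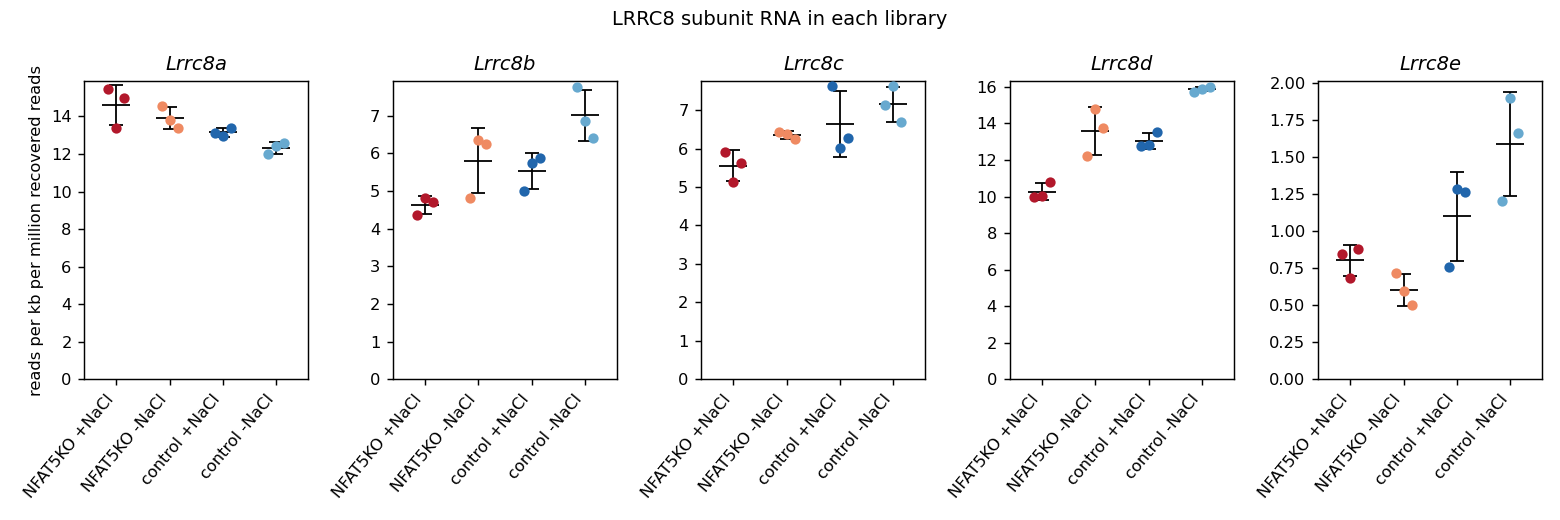
Level of each LRRC8 gene in each of the 12 libraries, in RPKM (reads per kb per 1000000 recovered reads) on the y axis, with the 4 groups on the x axis. Points are libraries, long bars group means and error bars the SD (n = 3); Lrrc8d averaged 10.3 in NFAT5KO +NaCl and 15.9 in control -NaCl cells, and Lrrc8a 14.6 and 12.3 in the same groups.

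For Lrrc8d the order of groups was, from the lowest, NFAT5KO +NaCl (10.3 RPKM), control +NaCl (13.0), NFAT5KO -NaCl (13.6) and control -NaCl (15.9), and only the middle pair overlapped. Lrrc8b followed the same order, at 4.63, 5.54, 5.81 and 7.01 RPKM, with overlap between NFAT5KO -NaCl and each group below it. For Lrrc8a the order from the highest was NFAT5KO +NaCl (14.6), NFAT5KO -NaCl (13.9), control +NaCl (13.2) and control -NaCl (12.3), where only control -NaCl stood clear of its neighbour. Lrrc8c was at 5.56 in NFAT5KO +NaCl, 6.36 in NFAT5KO -NaCl, 6.64 in control +NaCl and 7.15 in control -NaCl cells, and only the first of these stood clear. Lrrc8e was at 0.802 in NFAT5KO +NaCl and 0.604 in NFAT5KO -NaCl cells, and at 1.10 in control +NaCl and 1.59 in control -NaCl cells, and groups next to each other in level overlapped throughout.

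Lrrc8a, the subunit every channel needs, had 932.5, 798.2 and 912.7 normalized counts in NFAT5KO +NaCl and 875.8, 837.6 and 804.4 in NFAT5KO -NaCl libraries. In control cells it had 740.6, 733.1 and 761.0 with +NaCl and 668.0, 698.7 and 716.6 with -NaCl. The media overlapped in NFAT5KO cells and did not overlap in control cells, where every +NaCl library was higher. The log2 fold changes of +NaCl over -NaCl were 0.07 in NFAT5KO cells (SE 0.07, adjusted p = 0.596) and 0.10 in control cells (SE 0.06, adjusted p = 0.23), from limma fitted to the log2 of the normalized count plus 1 with Benjamini-Hochberg adjustment over all genes tested, and neither passed the threshold of 0.05. The 95% interval was -0.09 to 0.23 in NFAT5KO cells and -0.02 to 0.23 in control cells. When 1 library was left out, the NFAT5KO value ran from 0.03 without +NaCl library 1 to 0.14 without +NaCl library 2. In a comparison of 3 libraries with 3, an exact permutation test of 1 gene cannot fall under 0.10. All tests used here instead rest on a model with a spread shared across genes.

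Lrrc8d, the subunit tied to the passage of taurine and of uncharged molecules, fell with +NaCl in both genotypes. It had 572.8, 567.1 and 624.6 normalized counts in NFAT5KO +NaCl and 700.3, 852.2 and 783.9 in NFAT5KO -NaCl libraries. In control cells it had 684.0, 690.5 and 730.9 with +NaCl and 834.3, 847.8 and 866.4 with -NaCl. In neither genotype did the media overlap, and NFAT5KO -NaCl replicate 1 was the lowest of its group. The log2 fold change was -0.40 in NFAT5KO cells (SE 0.08, adjusted p = 0.00904), a difference of -24.3%, and -0.28 in control cells (SE 0.06, adjusted p = 0.00399), a difference of -17.4%. In bulk RNA, fewer cells of a type and less RNA per cell cannot be told apart. The NFAT5KO call was lost without the mean-variance trend (adjusted p = 0.0986), where 14 genes passed in all, against 2441 with it. Leaving out any 1 library kept the call, with adjusted p of 0.00337 to 0.0487 in NFAT5KO cells and 0.00871 to 0.0203 in control cells.

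Lrrc8b, whose protein has also been tied to calcium leak from the endoplasmic reticulum, had 216.9, 237.1 and 236.4 normalized counts in NFAT5KO +NaCl and 239.3, 318.0 and 309.1 in NFAT5KO -NaCl libraries. The control libraries had 232.1, 267.7 and 275.3 with +NaCl and 356.4, 317.8 and 301.5 with -NaCl. All +NaCl libraries were lower than all -NaCl libraries within each genotype, although NFAT5KO -NaCl replicate 1 cleared the +NaCl libraries only narrowly and overlapped them on the RPKM scale (4.82 RPKM, against 4.83 in +NaCl replicate 2). In NFAT5KO cells the log2 fold change was -0.32 (SE 0.12, adjusted p = 0.104), and in control cells Lrrc8b fell by 0.33 on the log2 scale (SE 0.10, adjusted p = 0.0333). Both values hang on single libraries. Without NFAT5KO -NaCl replicate 1 the NFAT5KO change was -0.45 (adjusted p = 0.0177). The control call was lost without control +NaCl library 1 or 2 (adjusted p = 0.106 and 0.0603) or control -NaCl library 1 or 2 (0.127 and 0.0722), and also without the mean-variance trend (0.0901).

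Lrrc8c, a partner subunit found in many cell types including vessel endothelium, had 734.8, 630.2 and 705.9 normalized counts in NFAT5KO +NaCl and 799.2, 797.3 and 773.6 in NFAT5KO -NaCl libraries. Control cells gave 886.7, 702.5 and 734.7 with +NaCl and 819.4, 882.0 and 785.5 with -NaCl, so that the highest control library was a +NaCl one. The media did not overlap in NFAT5KO cells and overlapped in control cells. The log2 fold change of -0.20 in NFAT5KO cells (SE 0.07, 95% interval -0.36 to -0.04) did not pass after adjustment (adjusted p = 0.0899), nor did that of -0.10 in control cells (SE 0.09, 95% interval -0.29 to 0.09, adjusted p = 0.431). The control value ran from -0.20 without +NaCl library 1 (adjusted p = 0.0647) to -0.04 without +NaCl library 2 (0.821).

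Lrrc8e, a partner with a more restricted tissue range, was measured on few reads, 29 to 93 per library. It had 45.9, 36.9 and 48.3 normalized counts in NFAT5KO +NaCl and 39.1, 32.5 and 27.3 in NFAT5KO -NaCl libraries. The control values were 38.5, 65.6 and 64.8 with +NaCl and 60.7, 96.3 and 85.6 with -NaCl. The media overlapped in both genotypes. The log2 fold change was 0.40 in NFAT5KO cells (SE 0.25, 95% interval -0.14 to 0.94, adjusted p = 0.314) and -0.53 in control cells (SE 0.26, 95% interval -1.09 to 0.03, adjusted p = 0.161), and neither passed. The control value ran from -0.72 without -NaCl library 1 (adjusted p = 0.0856) to -0.28 without +NaCl library 1 (0.435).

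Counted together, 1 of the 5 genes, Lrrc8d, was lower with +NaCl in NFAT5KO cells, where 7.37% of all genes tested were lower, 7.29% higher and 14.7% changed in either direction. At unadjusted p below 0.05 it was 3, all lower (Lrrc8b, Lrrc8c and Lrrc8d), against 29.5% of all genes in either direction. In control cells 2 of 5, Lrrc8b and Lrrc8d, were lower, where 12.7% of all genes were lower, 13.3% higher and 26% changed in either direction. At unadjusted p it was the same 2, against 36.9% of all genes in either direction. No member was higher at the threshold in either genotype, by limma at adjusted or unadjusted p or by edgeR or DESeq2 at adjusted p. Only Lrrc8d was lower in both genotypes, as were 5.32% of the genes tested in both. The media did not overlap for 3 members in NFAT5KO cells (34.3% of all genes) and for 3 in control cells (40.7%), so that such separation was common across the transcriptome. The median log2 fold change of the 5 was -0.20 in NFAT5KO cells and -0.28 in control cells, beside medians of 0.0009 and -0.0018 over all genes.

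The responses of the genotypes were then compared directly, as the log2 fold change in NFAT5KO cells minus that in control cells, in 1 limma model of the 12 libraries. At adjusted p 0 of the 5 differed, where 1.8% of all genes did (1.44% with the more negative change in NFAT5KO cells), and 0 also by edgeR and by DESeq2 on the recovered reads. At unadjusted p 1 did, Lrrc8e, where 13% of all genes did. Its difference was 0.93 (SE 0.36, 95% interval 0.16 to 1.70, adjusted p = 0.261). For Lrrc8d the difference was -0.13 (SE 0.10, 95% interval -0.34 to 0.09, adjusted p = 0.654), and for Lrrc8b it was 0.02 (SE 0.16, 95% interval -0.33 to 0.36). For Lrrc8a it was -0.03 (95% interval -0.23 to 0.16) and for Lrrc8c -0.09 (95% interval -0.34 to 0.16). The interval of Lrrc8b leaves room for a difference as large as its response in either genotype, and that of Lrrc8d for one of up to 0.34 in size. The call for Lrrc8b in control cells alone therefore does not show a difference between the genotypes.

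**Figure D3:**
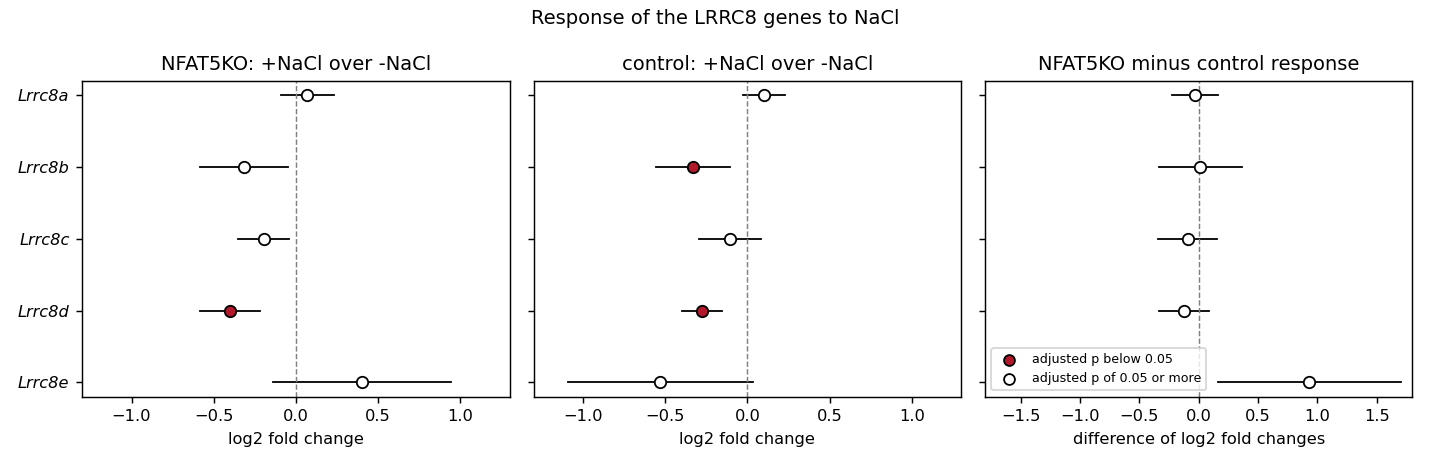
Log2 fold change of +NaCl over -NaCl for each LRRC8 gene in NFAT5KO cells and in control cells, and on the right the response in NFAT5KO cells minus that in control cells; points are limma estimates, bars 95% intervals, and filled points have an adjusted p below 0.05. Filled points are Lrrc8d (-0.40) in NFAT5KO cells and Lrrc8b (-0.33) and Lrrc8d (-0.28) in control cells.

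Seen as a mixture, the LRRC8 RNA had a higher share of Lrrc8a and a lower share of Lrrc8d with +NaCl. Lrrc8a made up 40.7% ± 1.48 of the summed LRRC8 reads per kb in NFAT5KO +NaCl and 34.6% ± 2.53 in NFAT5KO -NaCl cells, against 33.3% ± 0.122 in control +NaCl and 28.1% ± 0.859 in control -NaCl cells (SD, n = 3 each). Lrrc8d made up 28.6% ± 1.14 and 33.7% ± 1.90 in NFAT5KO cells with +NaCl and -NaCl, and 33.0% ± 0.529 and 36.1% ± 0.711 in control cells with +NaCl and -NaCl. In both genotypes the shares of these 2 genes did not overlap between media. Lrrc8c lay between 15.1% and 19.4% over the 12 libraries. The Lrrc8b share was 12.9% ± 1.14 in NFAT5KO +NaCl and 14.4% ± 1.70 in NFAT5KO -NaCl cells (SD, n = 3 each), with overlap. Control +NaCl libraries had Lrrc8b shares of 12.7% to 14.78%, against 14.81% to 17.7% in control -NaCl libraries, so the media did not overlap there, by a narrow margin. The Lrrc8e share was 2.23% ± 0.190 in NFAT5KO +NaCl and 1.51% ± 0.310 in NFAT5KO -NaCl cells, without overlap, and 2.78% ± 0.750 in control +NaCl and 3.61% ± 0.771 in control -NaCl cells (SD, n = 3 each), with overlap. Shares sum to 100% within a library, so the share of 1 gene also moves when others change: the level of Lrrc8a itself did not pass the test in either genotype, while Lrrc8d fell in both and Lrrc8b in control cells.

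**Figure D4:**
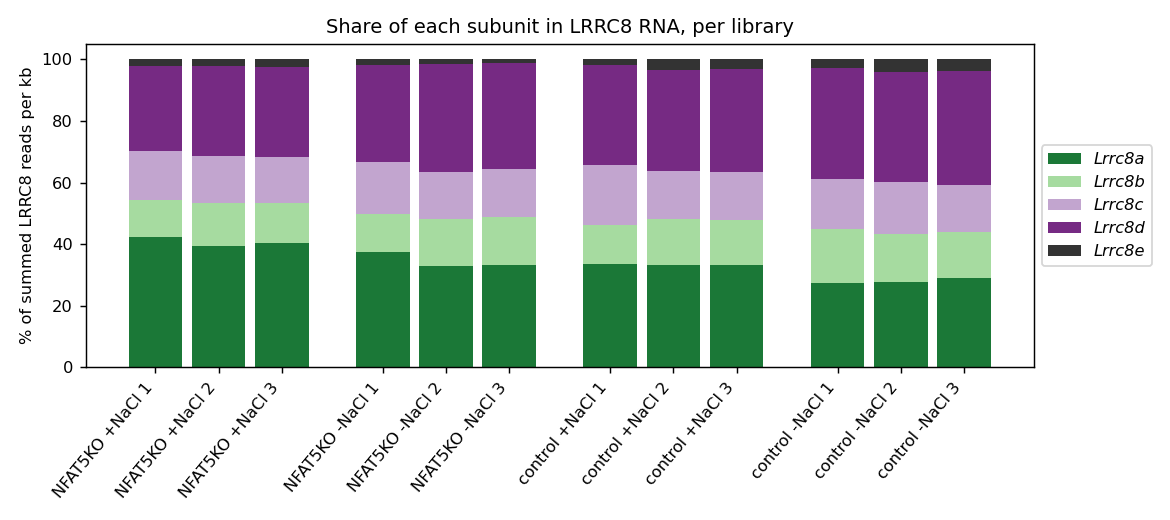
Share of each subunit in the summed LRRC8 reads per kb (y axis, %) in each of the 12 libraries (x axis), with 1 stacked bar per library. The Lrrc8a share averaged 40.7% in NFAT5KO +NaCl and 28.1% in control -NaCl libraries, with the other groups between.

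The ratio of partner to obligatory subunit within a library needs no scaling between libraries. Lrrc8d over Lrrc8a, per kb, was 0.647, 0.748 and 0.720 in NFAT5KO +NaCl and 0.842, 1.07 and 1.03 in NFAT5KO -NaCl libraries. In control cells it was 0.972, 0.992 and 1.01 with +NaCl and 1.31, 1.28 and 1.27 with -NaCl. Every +NaCl library had the lower ratio within its genotype, and the NFAT5KO -NaCl and control +NaCl libraries overlapped. Lrrc8b over Lrrc8a averaged 0.319 ± 0.0393 in NFAT5KO +NaCl and 0.420 ± 0.0762 in NFAT5KO -NaCl cells, and 0.421 ± 0.0351 in control +NaCl and 0.570 ± 0.0702 in control -NaCl cells (SD, n = 3 each). All 4 partners summed to 1.46 ± 0.0889 and 1.90 ± 0.204 times Lrrc8a in NFAT5KO cells with +NaCl and -NaCl, and to 2.00 ± 0.0110 and 2.57 ± 0.108 times in control cells. The family sum was 35.9 ± 1.59 and 40.3 ± 1.62 RPKM in NFAT5KO cells with +NaCl and -NaCl, and 39.5 ± 0.804 and 44.0 ± 0.682 in control cells, so +NaCl cells held -10.9% and -10.2% relative to -NaCl cells of the same genotype. These RNA ratios say nothing of how many subunits reach a channel.

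**Figure D5:**
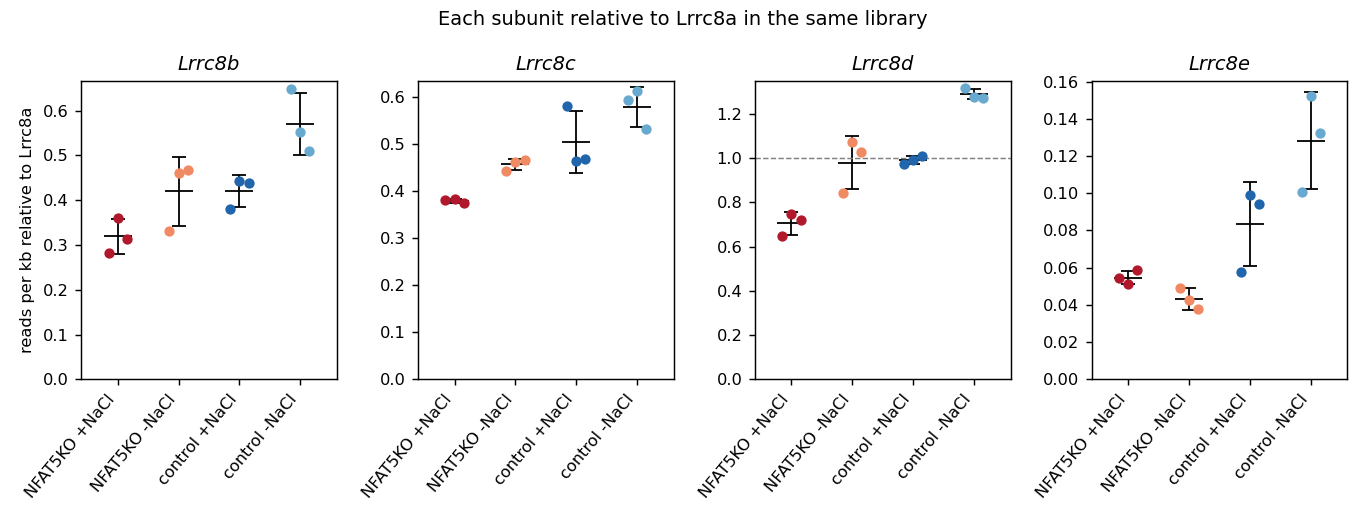
Reads per kb of each partner subunit relative to Lrrc8a in the same library (y axis), by group (x axis); points are libraries, long bars means and error bars the SD (n = 3), and the dashed line marks equal reads per kb. Lrrc8d averaged 0.705, below that line, in NFAT5KO +NaCl cells and 1.29, above it, in control -NaCl cells, groups that differ in both genotype and medium.

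Between genotypes in the same medium, levels were compared at equal depth, from the recovered reads, because the tables were normalized separately. These levels are a description only, because the knockout is 1 clone. Lrrc8d stood at 0.787 of its control level in +NaCl and 0.856 in -NaCl, and Lrrc8b at 0.837 and 0.828. Lrrc8c stood at 0.837 and 0.890, and Lrrc8a at 1.11 and 1.13. The largest gap was that of Lrrc8e, 0.729 in +NaCl with overlapping libraries and 0.381 in -NaCl, where 0.717, 0.592 and 0.503 RPKM in NFAT5KO libraries lay below 1.20, 1.89 and 1.66 in control libraries. With TMM scaling all 10 ratios kept their side of 1. Whether libraries of the genotypes overlapped changed between the scalings for Lrrc8a in +NaCl, Lrrc8b in -NaCl and Lrrc8c in +NaCl.

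Among the other genes of the cluster, Zfp326 had 730.9, 694.5 and 773.7 normalized counts in NFAT5KO +NaCl and 817.5, 746.9 and 818.9 in NFAT5KO -NaCl libraries. In control cells it had 733.8, 720.0 and 760.1 with +NaCl and 716.4, 638.7 and 737.1 with -NaCl. Its log2 fold changes of -0.12 in NFAT5KO cells (adjusted p = 0.305) and 0.08 in control cells (adjusted p = 0.413) did not pass.

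Over the 12 libraries, after the mean of each genotype was removed, Lrrc8b and Lrrc8d varied together (Pearson r 0.876), while Lrrc8a varied against Lrrc8b (-0.700) and less so against Lrrc8d (-0.477). Lrrc8c had an r of 0.572 with Lrrc8d. The libraries share the NaCl contrast, so these values describe it in part and carry no p. Among the 10868 protein-coding genes that averaged 50 or more normalized counts in both tables, those most like Lrrc8d were Mcfd2, a cargo receptor subunit for coagulation factors (0.984), and Tspan9, a tetraspanin (0.979). Nearest to Lrrc8b were Eif5a2, a translation factor (0.963), and F3, tissue factor (0.952). Nearest to Lrrc8a were Maz, a zinc finger transcription factor (0.933), and Rptor, the raptor subunit of mTOR complex (0.933), and nearest to Lrrc8c were RGD1307554 (0.955) and Ivd, a mitochondrial dehydrogenase of leucine breakdown (0.939). Lrrc8e was below that minimum and was not searched.

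Other anion channels or regulators tied to cell volume moved in both directions. Of 15 in the list, 12 could be tested (Slco2a1 was under the minimum count and 2 were not analysed here), with 1 higher and 3 lower in NFAT5KO cells (all genes tested: 7.29% higher, 7.37% lower) and 2 higher and 3 lower in control cells (13.3% and 12.7%). These shares over all genes apply to each list that follows. Ano6, a scramblase that also conducts ions, rose in both, by 0.51 in NFAT5KO cells (SE 0.10, adjusted p = 0.00583) and 0.78 in control cells (SE 0.04, adjusted p = 7.88e-07) on the log2 scale. Tmem206, the proton-activated chloride channel, fell in both, to 486.3 ± 9.67 normalized counts in NFAT5KO +NaCl against 635.3 ± 75.7 in NFAT5KO -NaCl cells, and to 520.3 ± 21.1 in control +NaCl against 724.1 ± 60.4 in control -NaCl cells (SD, n = 3 each). Its changes were -0.38 (adjusted p = 0.0177) and -0.47 (adjusted p = 7.67e-04). Ttyh3, of the tweety family, had a change of 0.06 in NFAT5KO cells (adjusted p = 0.545) and rose by 0.55 in control cells (adjusted p = 1.4e-05), a difference of -0.49 (SE 0.07, adjusted p = 0.00149). Ano1, a calcium-activated chloride channel, fell by 0.57 in NFAT5KO cells (adjusted p = 0.00175) and changed by -0.12 in control cells (adjusted p = 0.242). The Ano1 difference of -0.46 (adjusted p = 0.0415) was lost without any 1 of 10 libraries (0.0636 to 0.107), those other than control -NaCl replicate 1 and NFAT5KO -NaCl replicate 1, and under equal library totals (0.053). Ano10 also fell in NFAT5KO cells (-0.47, adjusted p = 0.0291, and 0.0745 to 0.125 without +NaCl library 2 or 3 or -NaCl library 2 or 3). Ttyh2 fell in control cells (-0.51, adjusted p = 0.0239, and 0.0583 to 0.0979 without +NaCl library 1 or 2 or -NaCl library 1 or 2), while its change of -0.43 in NFAT5KO cells (adjusted p = 0.0658) passed without NFAT5KO +NaCl library 3 (0.0409) and with robust eBayes (0.0455). Clns1a, a chaperone once proposed as a swelling-linked chloride channel, also fell in control cells (-0.32, adjusted p = 0.00133), and in NFAT5KO cells its change of -0.22 did not pass (adjusted p = 0.054, but 0.0248 to 0.0459 with equal library totals, DESeq2, 1 model of the 12 libraries or robust eBayes). The Tmem206 call in NFAT5KO cells was lost without +NaCl library 3 or -NaCl library 2 or 3 (0.0505 to 0.0865).

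Of 6 kinases and adaptors tied to LRRC8 channel activity, 3 rose in NFAT5KO cells (7.29% of all genes) and 3 in control cells (13.3%), and these were Wnk1, Oxsr1 and Rps6ka5 in both. Wnk1, the chloride-sensitive kinase upstream of Oxsr1, had changes of 0.21 (SE 0.05, adjusted p = 0.0174) in NFAT5KO cells and 0.27 (SE 0.04, adjusted p = 3.66e-04) in control cells. Oxsr1, which phosphorylates cation-chloride cotransporters, had changes of 0.20 (adjusted p = 0.026) and 0.26 (adjusted p = 5.4e-04), and Rps6ka5, a kinase downstream of p38, had changes of 0.31 (adjusted p = 0.0461) and 0.57 (adjusted p = 0.00428). All 3 NFAT5KO calls depended on single libraries. Wnk1 was lost there without +NaCl library 3 or -NaCl library 2 or 3 (0.0522 to 0.081), Oxsr1 without +NaCl library 1 or 3 or -NaCl library 2 or 3 (0.0608 to 0.113), and Rps6ka5 without any library but -NaCl library 1 (0.0705 to 0.177) and with edgeR, DESeq2, equal library totals or 1 model of the 12 libraries (0.0505 to 0.0665). The difference between genotypes passed for 0 of the 6, also at unadjusted p and by edgeR and DESeq2.

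Of 8 partners in the volume decrease that follows swelling, 1 was lower in NFAT5KO cells, while 1 was higher and 3 were lower in control cells. Trpv4, a calcium channel opened by swelling, fell in both, by 0.36 in NFAT5KO cells (SE 0.06, adjusted p = 0.00269) and 0.18 in control cells (SE 0.04, adjusted p = 0.00425). The potassium-chloride cotransporters Slc12a4 (-0.35, adjusted p = 1.35e-04) and Slc12a7 (-0.27, adjusted p = 0.0177) fell in control cells, and their changes in NFAT5KO cells were -0.08 (adjusted p = 0.53) and -0.10 (adjusted p = 0.332). Slc12a7 was lost when +NaCl library 1 or 2 or -NaCl library 1 of control cells was left out (0.0586 to 0.0739). Aqp1, a water channel, had 4360 ± 398 normalized counts in NFAT5KO +NaCl and 3970 ± 128 in NFAT5KO -NaCl cells, and 4970 ± 105 in control +NaCl and 2955 ± 120 in control -NaCl cells (SD, n = 3 each). Its change of 0.13 in NFAT5KO cells did not pass (adjusted p = 0.215), although it did without NFAT5KO +NaCl library 2 (0.21, adjusted p = 0.0234), and the difference from control cells was -0.62 (SE 0.08, adjusted p = 6.23e-04). Kcnn4, a calcium-activated potassium channel, had few normalized counts, 10.6 ± 2.35 in control +NaCl and 3.71 ± 3.34 in control -NaCl cells. In NFAT5KO cells it had 2.44 ± 2.38 with +NaCl and 2.36 ± 1.57 with -NaCl (SD, n = 3 each). Its change of 1.53 in control cells (SE 0.57) did not pass (adjusted p = 0.0723). It passed without control -NaCl library 3 (2.07, adjusted p = 0.0197) and with robust eBayes (0.0472). The Kcnn4 change in NFAT5KO cells was -0.18 (SE 0.76, adjusted p = 0.906). For Slc12a4 the difference was 0.27 (adjusted p = 0.208), for Slc12a7 it was 0.17 (adjusted p = 0.484) and for Trpv4 it was -0.18 (adjusted p = 0.23).

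Of the pannexins, channel proteins related to the LRRC8 family, 1 of 3 rose in each genotype. Panx3, the pannexin of bone and cartilage, rose by 0.54 in NFAT5KO cells (SE 0.12, adjusted p = 0.0137) and by 1.12 in control cells (SE 0.07, adjusted p = 1.42e-06). The NFAT5KO call was lost without -NaCl library 2 or 3 (0.068 and 0.0618). The difference of -0.58 did not pass by limma (adjusted p = 0.0839), so 0 of 3 passed by limma and by edgeR, with 1 at unadjusted p. It passed by DESeq2 (adjusted p = 0.0047) and by limma without NFAT5KO -NaCl library 2 (0.0463).

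Of the genes for uptake and synthesis of organic osmolytes, the solutes that pass LRRC8 channels, 2 of 3 tested were higher and 1 was lower in NFAT5KO cells, and 2 of 4 were higher in control cells. Of the 5 genes in this list, Slc5a3 was not analysed here. Slc6a12 was listed for control cells alone, where its change of 1.23 (SE 0.75, limma adjusted p = 0.271) did not pass. Slc6a6, the taurine transporter, rose by 0.22 in NFAT5KO cells (SE 0.06, adjusted p = 0.023) and 0.41 in control cells (SE 0.07, adjusted p = 9.62e-04), and the NFAT5KO call was lost without +NaCl library 3 or -NaCl library 2 (0.0943 and 0.104). Slc38a2, an amino acid transporter, rose by 0.50 (adjusted p = 0.0019) and 0.70 (adjusted p = 1.99e-05) in NFAT5KO and control cells. Akr1b1, the aldose reductase that makes sorbitol, fell by 0.26 in NFAT5KO cells (SE 0.06, adjusted p = 0.0154) and changed by 0.12 in control cells (SE 0.05, adjusted p = 0.0878, but 0.0456 without +NaCl library 2), a difference of -0.38 (SE 0.08, adjusted p = 0.0192). The Akr1b1 fall was lost without NFAT5KO +NaCl library 3 or -NaCl library 2 or 3 (0.0526 to 0.0765), and its difference without control +NaCl library 3, control -NaCl library 1 or control -NaCl library 2 (0.0519 to 0.0656). Without the mean-variance trend each NFAT5KO call named for these lists missed the threshold (0.0747 to 0.139), as did the control calls of Trpv4 (0.0534), Rps6ka5 (0.0593), Slc12a7 (0.0607) and Ttyh2 (0.0772) and the differences of Ano1 (0.149) and Akr1b1 (0.115).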

How the data were processed

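Poly-A RNA was made into NEBNext Ultra libraries. The aligner, counter and strandedness are not given in the sources used here. The labels name the mouse build mm10, although the gene IDs are those of rat. The deposited signal is a normalized count per gene, which the authors made with 1 scaling factor per library and 1 table per genotype. The genotype in the column labels was used where a table's name said otherwise. In all, 24 columns without a sample name and the authors' own fold changes, p values and group means were not used. Whole reads were recovered (100% of values within 0.1 read) and used for depth, levels per kb, edgeR 4.0.16 and DESeq2 1.42.0. The main test was limma 3.58.1 (R 4.3.3, mean-variance trend) on log2(normalized count + 1), for genes with a mean of at least 1, within each genotype. Fold changes on this scale understate those of low genes. The difference between responses was an interaction contrast. Replicate numbers did not pair the libraries. Promoter sequences are from RefSeq (GRCr8). Scripts were tested on simulated data. Members and lists were chosen with earlier results of these data known. The text names the 5 members, Nfat5, neighbours, the 2 protein-coding genes most like each member searched, and, of each list, genes that passed or had the smallest p. Kcnn4 was named after its values were seen.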

Additional observations from a re-analysis of the deposited data

Results flagged for a closer look

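The responses to NaCl of 4 genes of the lists differed between the genotypes by the test of the difference itself (limma, NFAT5KO minus control log2 fold change over 12 libraries, Benjamini-Hochberg adjusted p below 0.05). They were Aqp1 at -0.62, Ttyh3 at -0.49, Ano1 at -0.46 and Akr1b1 at -0.38, and in each the NFAT5KO value was the more negative. These were 2 of 12 anion channels or regulators tested, 1 of 8 partners in volume decrease and 1 of 3 osmolyte genes. None came from the 6 kinases and adaptors or the 3 pannexins. Over all genes tested 1.8% differed, and of those 304 genes 243 had the more negative change in NFAT5KO cells, so that direction was common. Aqp1 and Ttyh3 kept passing whichever library was left out, while Ano1 and Akr1b1 did not. The LRRC8 genes themselves gave 0 such differences at adjusted p by limma, edgeR and DESeq2, and 1, Lrrc8e, at unadjusted p.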

How the results depend on the processing

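The 2 members lower in control cells became 1 without the mean-variance trend and with the replicate block (Lrrc8b adjusted p = 0.0901 and 0.0535), and 1 to 2 when 1 library was left out. The 1 member lower in NFAT5KO cells became 0 without the trend, and 1 to 2 when 1 library was left out. The count of 0 for the difference held in all alternatives run. Pseudocounts, filters, equal totals, TMM scaling, edgeR, DESeq2, 1 model of the 12 libraries and robust eBayes (added after seeing the data) left the calls of the 5 genes as they were. Libraries of the same replicate number did not deviate together (r of -0.085 to 0.053 in NFAT5KO and -0.098 to 0.145 in control cells), and the block changed no other member's call. Of the listed genes, the block lost the NFAT5KO calls of Ano10 (adjusted p = 0.0555) and Rps6ka5 (0.0806), and with it Panx3 passed for the difference (0.0199) and Prkd1, a protein kinase, in control cells (0.0481). Ttyh1 passed in control cells with edgeR (0.0495) and without the trend (0.0278). The unpassed differences between genotypes changed sign when 1 library was left out for Lrrc8a (-0.076 to 0.036), Lrrc8b (-0.114 to 0.0901) and Lrrc8c (-0.161 to 0.00717). Over all genes, 2441 passed in NFAT5KO cells but 14 without the trend and 1421, 943 and 1116 without +NaCl library 3 or -NaCl library 2 or 3, 4450 passed in control cells but 2763 without the trend, and 304 differed but 484 with DESeq2, 103 without the trend and 159 to 200 without any 1 of 5 control libraries (all but -NaCl replicate 3). The cause was not tested.

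Without division by gene length, the shares in NFAT5KO +NaCl, NFAT5KO -NaCl, control +NaCl and control -NaCl cells were 36.2%, 30.8%, 29.4% and 25.0% for Lrrc8a, 24.2%, 28.5%, 27.7% and 30.6% for Lrrc8d, 9.49%, 10.6%, 10.2% and 11.7% for Lrrc8b and 28.4%, 29.0%, 30.5% and 29.8% for Lrrc8c, and Lrrc8e had 1.79% in NFAT5KO +NaCl cells. The long Lrrc8c transcript then ranks higher, and Lrrc8a and Lrrc8d keep their directions between media. Depth limits Lrrc8e, with 29 to 93 reads a library.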
